A study of Mus musculus with 12 samples.

Results

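The genes of the methionine cycle and of polyamine synthesis were read in donor-derived bone marrow progenitor cells of mouse. The 10 rows were Mat2a, Mat2b, Ahcy, Gm4737, Gm7292, Odc1, Amd1, Amd2, Srm and Sms, taken by symbol from a table of 55450 genes. Ahcy, its listed copies and Amd2 were chosen by earlier results of these libraries, in which their log2 fold changes stood out between Tet2KO and WT or between dKO and Tet2KO, so their values and those of Amd1 and of the family sums are descriptions without a test. The other 5 genes belong by function, though the list was drawn up with earlier results of these libraries known. All 10 passed the filter on low counts, among 14346 genes tested.

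Methionine adenosyltransferase makes S-adenosylmethionine, the donor of methyl groups for DNA, RNA and histones. Its product after methyl transfer, S-adenosylhomocysteine, inhibits methyltransferases until Ahcy cleaves it. Decarboxylated S-adenosylmethionine supplies the aminopropyl groups that turn putrescine into spermidine and spermine, polycations that growing cells, blood progenitors among them, need for translation.

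Donor marrow cells negative for lineage markers and positive for the receptor Kit were sorted from recipients of competitive transplants. The 4 genotype labels were WT, Tet2KO (loss of the DNA dioxygenase gene Tet2), Id1KO (loss of Id1, an inhibitor of basic helix-loop-helix factors) and dKO (loss of both), with 3 libraries each; age, strain and the kind of allele were not given in the sources used here. The libraries of a genotype carry 1 sample number, so they may be repeats of 1 cell sample, and p-values then measure only the spread between libraries. Total estimated counts ranged from 15706407 to 16881651 in dKO, from 16176673 to 18386991 in Tet2KO, from 17994745 to 19139395 in Id1KO and from 19024905 to 19959183 in WT.

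The targeted genes did not follow the labels. Tet2 had 99.3 ± 2.2 CPM (counts scaled to a common library size; mean ± SD, n = 3 in this and all later group values) in WT, 118 ± 3.1 in dKO, 130 ± 2.5 in the libraries labelled Tet2KO and 92.0 ± 1.5 in Id1KO. Id1 had 1.47 ± 0.27 CPM in WT, 3.93 ± 0.50 in dKO, 3.86 ± 0.42 in Tet2KO and 3.96 ± 0.34 in Id1KO. Neither was lower than WT in libraries labelled as lacking it. Which exons were deleted was not given, and a count over a whole gene need not fall with a short deletion, so every direction below is between libraries labelled in this way. Kit, Cd34, Myb, Gata2 and Flt3, which mark progenitors, summed to 1710 CPM in WT, 1560 in dKO, 1715 in Tet2KO and 1646 in Id1KO. The close sums of WT and Tet2KO hide opposite calls, with 3 genes higher in Tet2KO and 2 lower (16.6% and 16.2% of all genes tested). The log2 fold change was 0.53 for Flt3, 0.113 for Kit, 0.088 for Cd34, -0.105 for Myb and -0.239 for Gata2. The 9 lineage antigens removed by the sort summed to 37.7 to 46.3 CPM in the group means. Each antigen had a count in some library, and Cd3e was at 0 in all 3 dKO libraries.

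Several members have near-identical rows elsewhere in the genome, and the sequences that tell them apart are few. Gm4737, an intronless protein-coding gene on chromosome 16 (46152985 to 46155077, GRCm38), matched 2086 bases of the Ahcy transcript with 7 mismatches, of which 4 lie in the coding sequence and 3 in the 3′ UTR. The last of the 7, G2125A, lies in the run of A that ends the Gm4737 transcript. Ahcy itself has 10 merged exons on chromosome 2 (155059310 to 155074497). The stretches below hold all 4 coding differences and 2 of those in the 3′ UTR, in capitals; they are read from GENCODE transcripts, and positions count from 1 at the 5′ end of Ahcy-201, with the base of Ahcy first (C564T, G579A, C1155T, C1173T, A1712T and G1716T).
Ahcy, first coding stretch: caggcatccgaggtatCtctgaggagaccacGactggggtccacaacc
Gm4737, first coding stretch: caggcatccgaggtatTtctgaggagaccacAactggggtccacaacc
Ahcy, second coding stretch: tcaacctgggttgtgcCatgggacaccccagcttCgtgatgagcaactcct
Gm4737, second coding stretch: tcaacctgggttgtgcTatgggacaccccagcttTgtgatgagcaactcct
Ahcy, 3′ UTR stretch: caccttatcaAtgaGaccctcactt
Gm4737, 3′ UTR stretch: caccttatcaTtgaTaccctcactt

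Of all windows of 50 bases in Ahcy-201, 74.1% occur unchanged in Gm4737, and of windows of 100 bases 67.4%. A read inside such a window matches both rows, and the counting had to divide it by estimation. Amd1 (chromosome 10, 40287458 to 40302186, 8 merged exons) and the intronless Amd2 (chromosome 10, 35708675 to 35711892) have 10 mismatched bases over 3202 aligned columns, 1 of them coding, and share 86.1% of Amd1's windows of 50 bases. Their alignment also has 4 gap columns. The coding difference is shown next, in capitals (G1124C, counted along Amd1-201, with the base of Amd1 first).
Amd1: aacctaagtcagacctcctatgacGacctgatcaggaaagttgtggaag
Amd2: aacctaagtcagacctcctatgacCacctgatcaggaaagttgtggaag

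The reference went against reading Gm7292 as a copy of Ahcy. The longest exact run that Gm7292 (a long non-coding RNA gene on chromosome 6, 117716342 to 117718868) shares with Ahcy on the same strand is 11 bases. It is instead 99.2% identical over 2537 aligned columns to 2900097C17Rik, a long non-coding RNA on chromosome 2 (156388065 to 156392979), 1.31 Mb from Ahcy. That alignment has 9 mismatches and 12 gap columns. The stretches below show 2 of the 9 mismatches of that pair, in capitals (T1497C and A1508G, counted along 2900097C17Rik-202, with its base first). Sums are therefore given for Ahcy with Gm4737, and beside them with Gm7292.
2900097C17Rik: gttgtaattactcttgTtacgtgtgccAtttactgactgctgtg
Gm7292: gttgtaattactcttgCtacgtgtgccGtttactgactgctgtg

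**Figure D1:**
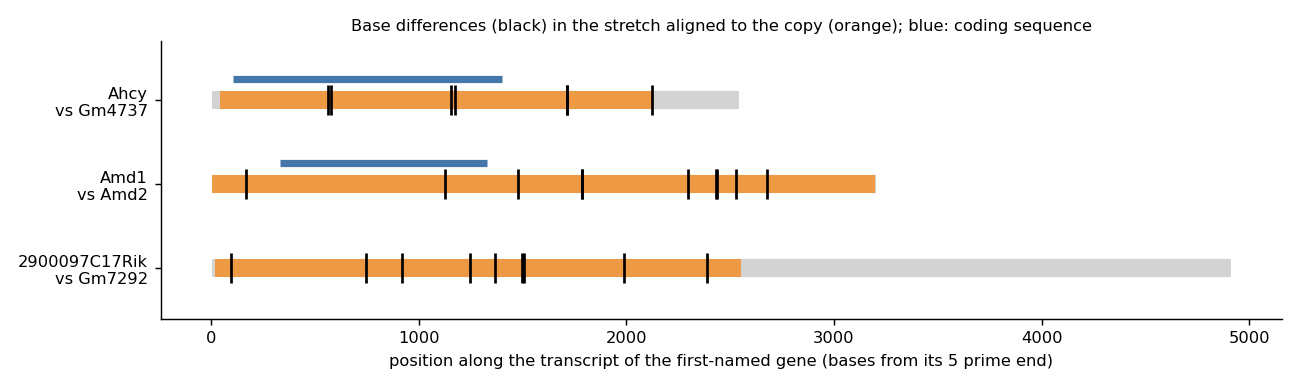
Base differences (black ticks) between Ahcy and Gm4737, Amd1 and Amd2, and 2900097C17Rik and Gm7292, by position along the transcript of the first-named gene in bases; orange is the aligned stretch, grey the rest and blue the coding sequence. There are 7, 10 and 9 mismatches, some of them only a few bases apart, and most of each aligned stretch has no tick. Gap columns, which number 4 for Amd1 and Amd2 and 12 for 2900097C17Rik and Gm7292, are not drawn.

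On a scale of CPM per kb of transcript, the order of levels in WT was led by Odc1 (139 ± 0.70), the rate-limiting enzyme of polyamine synthesis. Srm (99.6 ± 1.8), Mat2a (92.0 ± 1.1) and Amd1 (89.2 ± 1.4) came next, followed by Gm4737 (77.8 ± 1.7), Ahcy (55.3 ± 2.8) and Mat2b (52.6 ± 2.0). Sms (25.8 ± 0.072), Gm7292 (7.59 ± 0.31) and Amd2 (3.10 ± 0.29) were lowest. The libraries of Ahcy and Mat2b overlapped in WT, and all other neighbours in this order were separate. The places of Ahcy, Gm4737, Gm7292 and Amd2 rest on reads divided by estimation between near-identical rows. In CPM, without division by length, Ahcy and Gm4737 together had 304 ± 11 in WT. Odc1 had 306 ± 1.5 there and Srm 133 ± 2.4. Mat1a, the form of the enzyme known from liver, was listed at 0 in every library.

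Mat2a encodes the catalytic subunit of the methionine adenosyltransferase of most tissues. Its CPM was 315, 308 and 311 in WT, 259, 275 and 256 in dKO, 263, 255 and 262 in Tet2KO and 269, 262 and 276 in Id1KO. The 3 WT libraries lay above all 9 others, which overlapped each other. Mat2a fell by 0.26 ± 0.030 (log2 fold change ± SE) in Tet2KO against WT and by 0.21 ± 0.030 in Id1KO against WT (edgeR adjusted p = 1.27e-06 and 5.38e-05). With both losses it did not pass the test against either single loss, at 0.020 ± 0.030 against Tet2KO (95% interval -0.040 to 0.079) and -0.030 ± 0.030 against Id1KO (-0.089 to 0.030). The interaction, which is dKO minus Tet2KO less Id1KO minus WT, was 0.23 ± 0.043 (edgeR adjusted p = 0.000927). A 211-base stretch of Mat2a is shared with Particl, annotated on the opposite strand, which had 37 to 61 counts a library. Another, of 227 aligned bases, matched 6030443J06Rik at 95.2% in the opposite orientation, with 15 to 27 counts a library. The strand setting of the counting was not given.

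Mat2b encodes the regulatory subunit of the same enzyme and differed in other libraries. Its CPM was 107, 105 and 113 in WT, 108, 105 and 105 in dKO, 107, 109 and 107 in Tet2KO and 122, 116 and 125 in Id1KO. Only the Id1KO libraries stood apart, above all others. Mat2b rose by 0.16 ± 0.033 in Id1KO against WT and fell by 0.19 ± 0.034 in dKO against Id1KO (edgeR adjusted p = 0.00198 and 0.000407), with an interaction of -0.19 ± 0.048 (edgeR adjusted p = 0.0122). In Tet2KO against WT it was at -0.003 ± 0.034 (95% interval -0.070 to 0.063), and in dKO against Tet2KO at -0.022 ± 0.035.

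Ahcy, the hydrolase that removes S-adenosylhomocysteine, and Gm4737 moved in opposite directions in the deposited rows. Ahcy had 133, 147 and 141 CPM in WT, 69.5, 63.1 and 67.6 in dKO, 283, 270.1 and 274 in Tet2KO and 68.2, 73.6 and 82.5 in Id1KO. Gm4737 had 159, 165 and 165 CPM in WT, 234, 224 and 225 in dKO, 4.46, 5.40 and 6.26 in Tet2KO and 225, 222 and 214 in Id1KO. In both rows WT and Tet2KO were separate from each other and from the other groups, and only Id1KO and dKO overlapped. Ahcy was 0.97 ± 0.045 higher on the log2 scale in Tet2KO than in WT, while Gm4737 differed by -4.91 ± 0.060; in dKO against Tet2KO the values were -2.05 ± 0.051 and 5.39 ± 0.058, and in Id1KO against WT -0.91 ± 0.051 and 0.43 ± 0.033.

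Their sum varied far less. Gm4737 took 53.7 ± 0.79% of the sum of Ahcy and Gm4737 in WT, 77.4 ± 0.62% in dKO, 1.91 ± 0.34% in Tet2KO and 74.7 ± 2.3% in Id1KO. The sum was 304 ± 11 CPM in WT, 294 ± 8.2 in dKO, 281 ± 6.2 in Tet2KO and 295 ± 1.7 in Id1KO. By library it ran from 292 to 313 in WT and from 275 to 288 in Tet2KO, which did not overlap, while Id1KO and dKO each overlapped WT. Its log2 fold change was -0.11 ± 0.030 in Tet2KO against WT, -0.037 ± 0.030 in Id1KO against WT, 0.065 ± 0.030 in dKO against Tet2KO, while dKO differed from Id1KO by -0.005 ± 0.030. With Gm7292 added, the first and the third became -0.19 ± 0.028 and 0.20 ± 0.029. Gm9826, a processed pseudogene that is 99.2% identical to Ahcy over 1299 bases, had at most 20.6 counts in a library.

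Gm7292 had 19.6, 19.7 and 18.3 CPM in WT, 28.9, 28.2 and 30.8 in Id1KO and 25.4, 31.3 and 29.4 in dKO. In Tet2KO it had 0.269, 0.171 and 0.389 CPM, which are 4.39, 2.87 and 7.23 estimated counts, so its level there rests on very few reads. Its partner 2900097C17Rik had 433 ± 8.1 CPM in WT, 392 ± 8.3 in dKO, 491 ± 1.4 in Tet2KO and 415 ± 4.7 in Id1KO. Gm7292 took 4.24 ± 0.24% of the sum of the pair in WT, 6.81 ± 0.54% in dKO, 0.0563 ± 0.022% in Tet2KO and 6.59 ± 0.30% in Id1KO. The order of the group means in this share was that of the share of Gm4737, and Gm7292 and Gm4737 have no run of over 11 bases in common on the same strand. Ahcy and 2900097C17Rik lie 2.32 and 3.65 Mb from Id1 on chromosome 2; whether the position or the choice of row by the counting bears on the shares was not tested.

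**Figure D2:**
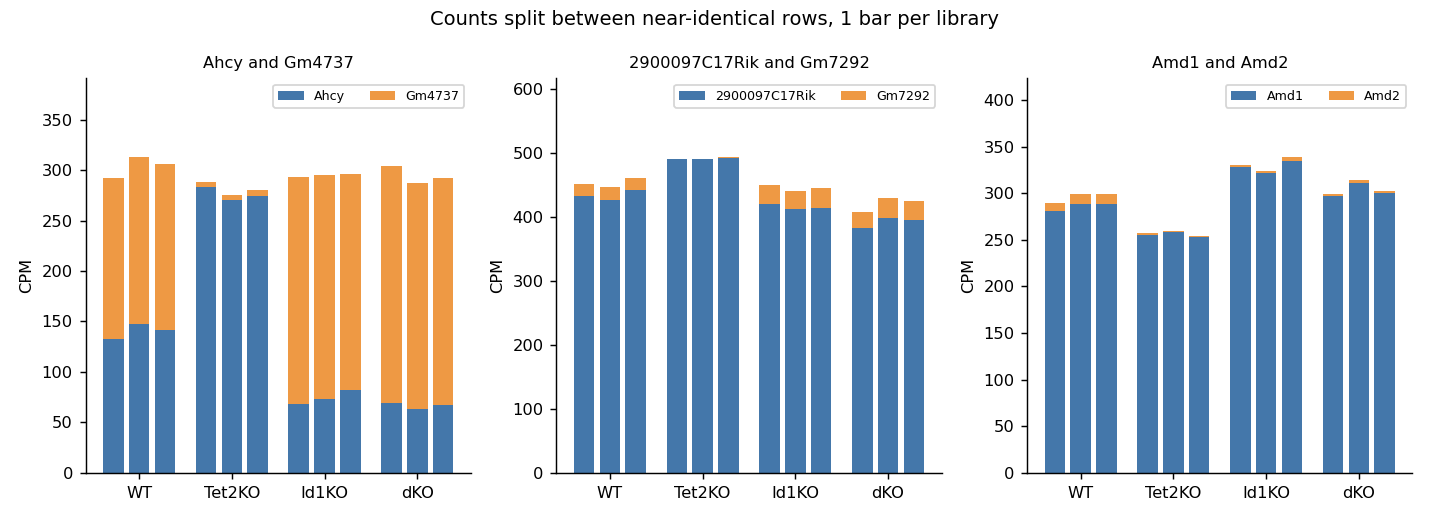
CPM of near-identical rows stacked per library, with 3 bars for each genotype label; blue is the first-named row and orange the second. In Tet2KO the orange part is 1.91% of Ahcy with Gm4737 and 0.0563% of 2900097C17Rik with Gm7292, while the height of the Ahcy bars stays between 275 and 313.

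Odc1, which makes putrescine from ornithine, had 305, 308 and 306 CPM in WT, 288, 293 and 297 in dKO, 246, 249.5 and 243 in Tet2KO and 319, 314 and 317 in Id1KO. No library of any group overlapped another group. Odc1 fell by 0.31 ± 0.025 in Tet2KO against WT and rose by 0.25 ± 0.025 in dKO against Tet2KO (edgeR adjusted p = 8.16e-09 and 4.09e-07). It also fell by 0.11 ± 0.025 in dKO against Id1KO (edgeR adjusted p = 0.00247), and in Id1KO against WT it was at 0.048 ± 0.024, which did not pass (edgeR adjusted p = 0.201). The interaction was 0.20 ± 0.035 (edgeR adjusted p = 0.000561).

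Amd1 encodes S-adenosylmethionine decarboxylase, which supplies the aminopropyl donor. It had 281, 288 and 289 CPM in WT, 297, 311 and 301 in dKO, 255, 258 and 253 in Tet2KO and 328, 321 and 334 in Id1KO, with no overlap between any of the groups. Amd2 had 9.18, 10.99 and 9.81 CPM in WT, 2.11, 3.203 and 1.93 in dKO, 2.13, 0.983 and 1.21 in Tet2KO and 2.98, 2.95 and 4.07 in Id1KO. WT was above every other library in Amd2, and the other groups were close together, with dKO overlapping both Tet2KO and Id1KO. Amd2 was 3.38 ± 0.27% of the sum of both rows in WT, 0.787 ± 0.20% in dKO, 0.561 ± 0.24% in Tet2KO and 1 ± 0.17% in Id1KO, so the sum follows Amd1. The sum had log2 fold changes of -0.20 ± 0.028 in Tet2KO against WT, 0.17 ± 0.027 in Id1KO against WT and 0.25 ± 0.028 in dKO against Tet2KO, and dKO differed from Id1KO by -0.12 ± 0.027.

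Srm, spermidine synthase, had 134, 130.4 and 135 CPM in WT, 133, 131 and 138 in dKO, 121, 116 and 118 in Tet2KO and 135, 142 and 128 in Id1KO. The Tet2KO libraries were below all others, which overlapped. Srm fell by 0.17 ± 0.035 in Tet2KO against WT and rose by 0.18 ± 0.036 in dKO against Tet2KO (edgeR adjusted p = 0.000872 and 0.000802). Its interaction of 0.17 ± 0.050 passed narrowly (edgeR adjusted p = 0.0308). That call was lost without WT replicate 1 or 3, Tet2KO replicate 2 or 3, Id1KO replicate 1 or 3, or dKO replicate 1 or 3 (adjusted p 0.0544 to 0.103), and by DESeq2 (0.064).

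Sms, spermine synthase, is X-linked and passed no test with all libraries. It had 96.3, 95.8 and 95.9 CPM in WT, 96.8, 104 and 98.4 in dKO, 92.0, 92.4 and 97.6 in Tet2KO and 101, 97.3 and 101 in Id1KO. Its log2 fold change was -0.029 ± 0.034 in Tet2KO against WT (95% interval -0.096 to 0.038), and in dKO against Tet2KO it was 0.085 ± 0.035 (edgeR adjusted p = 0.0776), which passed without Tet2KO replicate 3 (0.11, edgeR adjusted p = 0.0429). Sms-ps, identical to Sms over 1101 bases, had 79.6 to 148 counts a library, which is 4.14% to 7.72% of their sum. That share is itself an estimate of the counting, and how far the count of Sms is uncertain was not tested.

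**Figure D3:**
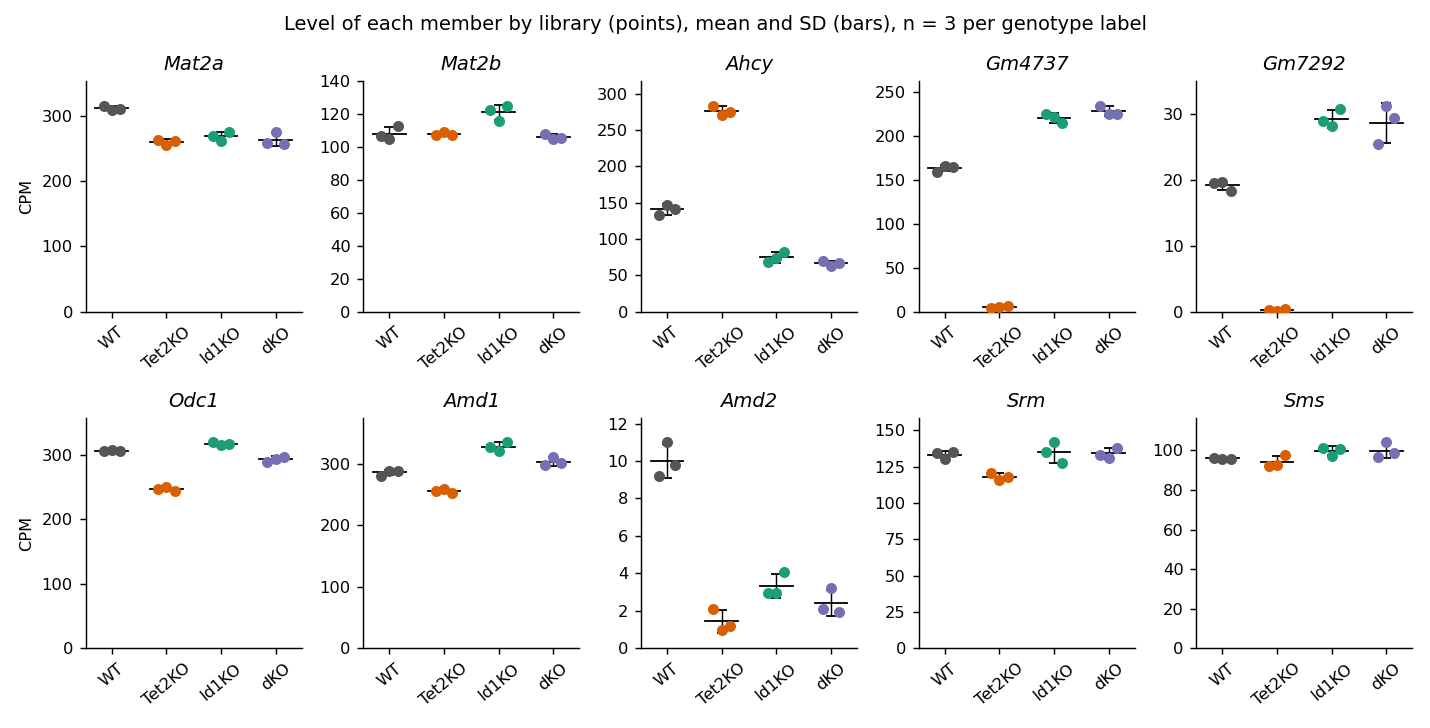
CPM of each of the 10 genes in every library (points), with the mean and SD of the 3 libraries of each genotype label (bars); every axis starts at 0 and has its own scale. Ahcy and Gm4737 are opposite in Tet2KO, Odc1 and Srm are lowest in Tet2KO, and Mat2a is highest in WT.

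Among the 5 members tested, 3 passed in Tet2KO against WT, all lower, where 16.2% of all genes tested were called lower, 16.6% higher and 32.8% either way. In Id1KO against WT 2 of 5 passed, 1 in each direction (7.26% of all genes higher, 7.77% lower, 15% either way). In dKO against Tet2KO 2 of 5 passed, both higher (13.1% of all genes higher, 13.4% lower, 26.4% either way), and in dKO against Id1KO 2 of 5, both lower (8.7% lower, 10.6% higher, 19.3% either way). For the interaction 4 of 5 passed, 3 higher and 1 lower (7.46% and 7.03% of all genes, 14.5% either way). The comparisons share libraries, those labelled Tet2KO among them, and are not independent of each other. The members were chosen with earlier results of these libraries known, so these counts are descriptions.

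**Figure D4:**
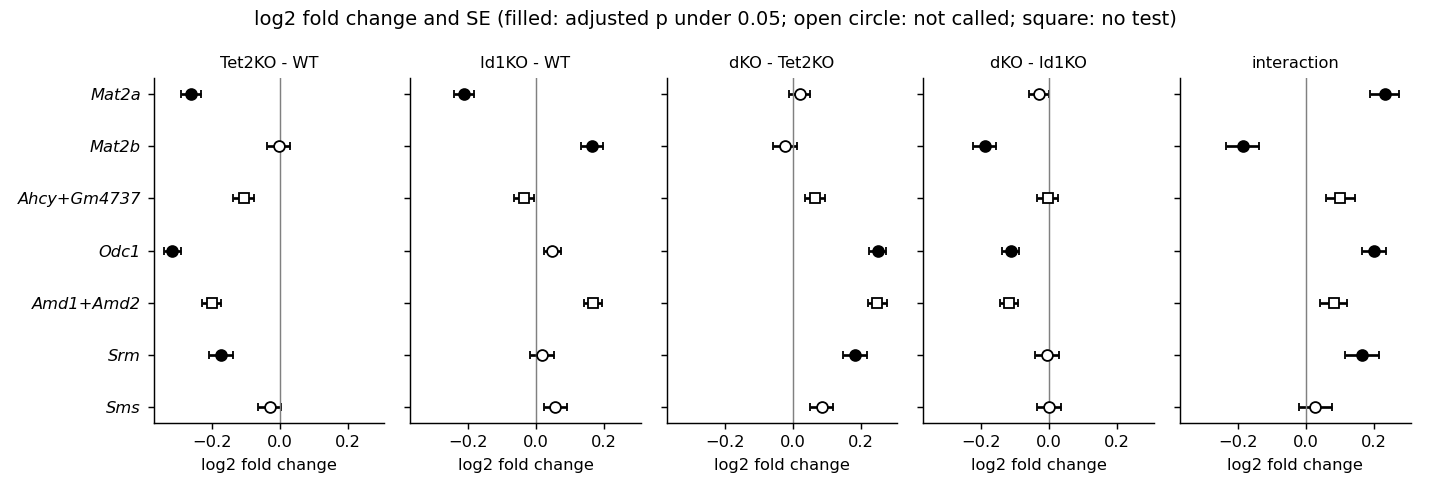
log2 fold change with SE of the tested members (circles, filled where the edgeR adjusted p was under 0.05) and of the sums that were not tested (squares), in 4 comparisons and the interaction. Odc1 stands at -0.31 in Tet2KO against WT and at 0.25 in dKO against Tet2KO, and Sms has no filled point.

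Markers of the red cell lineage moved with the Tet2KO libraries. The 15 erythroid markers summed to 1882 to 1939 CPM in WT, 1909 to 1915 in dKO, 1140 to 1157 in Tet2KO and 2098 to 2118 in Id1KO, and none was at 0. The close sums of WT and dKO hide genes that differed in either direction. Car1 had 493 ± 18 CPM in WT and 441 ± 2.7 in dKO. All 4 globins were instead higher in dKO, with Hbb-bs at 7.53 ± 0.51 CPM in WT and 14.0 ± 1.4 in dKO. No test was made of dKO against WT. Of these genes 14 were called lower in Tet2KO against WT, where 16.2% of all genes tested were. In dKO against Tet2KO 14 were called higher, against 13.1% of all genes. In dKO against Id1KO 4 were called higher and 4 lower (10.6% and 8.7% of all genes tested). The higher ones were the globins Hba-a1, Hba-a2, Hbb-bs and Hbb-bt, with log2 fold changes of 0.696 to 0.969. The lower ones were Epor, Car1, Car2 and Tfrc, at -0.329 to -0.119. The 15 S phase genes summed to 4372 CPM in WT, 4357 in dKO, 4132 in Tet2KO and 4237 in Id1KO, with 8 lower in Tet2KO against WT. Their part in the values of Odc1, Srm and Mat2a was not tested. In bulk RNA, fewer cells of a type and less RNA per cell cannot be told apart.

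Around the members, 51 other genes of the pathway were listed, and 40 were tested. In Tet2KO against WT 13 were called, 4 higher and 9 lower, which is 32.5% against the 32.8% of all genes; the median log2 fold change was -0.054, against -0.003 over all genes. The methionine salvage group, which recycles the methylthio by-product of polyamine synthesis, had 3 of 5 genes lower (edgeR adjusted p 0.0331 to 0.041, with overlapping libraries for 1 of them), and the methionine cycle group had 3 of 7 lower and 1 higher, where 16.2% of all genes were called lower. None of 4 polyamine regulators, 4 hypusine genes or 6 methyltransferase genes was called. Calls were made for 2 of 6 genes of methionine supply and sensing, 1 of 5 of polyamine catabolism and transport, the 1 ornithine supply gene tested and both upstream transcription factors. The lowest by the rule for naming genes were Ahcyl2, a relative of Ahcy (29.9 ± 1.5 CPM in WT and 24.2 ± 2.0 in Tet2KO, log2 fold change -0.30 ± 0.062), and Mtrr, the reductase that reactivates methionine synthase (26.1 ± 0.81 and 22.0 ± 1.6, -0.25 ± 0.059). The highest were Mycn, a transcription factor of the Myc family (6.73 ± 0.18 and 9.03 ± 0.28, 0.42 ± 0.092), and the amino acid transporter gene Slc7a8 (8.40 ± 1.2 and 10.2 ± 0.82, 0.29 ± 0.10). The edgeR adjusted p was 0.000778, 0.00283, 0.00139 and 0.0391. The call of Slc7a8 was lost without WT replicate 2, Tet2KO replicate 1 or Tet2KO replicate 3 (adjusted p 0.0611 to 0.219, and a log2 fold change of 0.18 without WT replicate 2), with only the libraries compared (0.0523) and by DESeq2 (0.0972). Without Tet2KO replicate 1, and by DESeq2 on all libraries, 8 genes of the list were called.

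In dKO against Tet2KO 15 of 40 were called, 12 higher and 3 lower, or 37.5% against 26.4% of all genes, with a median of 0.068 against 0; without Tet2KO replicate 3 it was 9. Mettl16, the methyltransferase that senses S-adenosylmethionine through the Mat2a transcript, rose from 62.8 ± 2.5 to 76.0 ± 2.9 CPM (0.28 ± 0.042), and Oat, an ornithine aminotransferase, from 124 ± 1.7 to 148 ± 5.2 (0.26 ± 0.034). Lower were Paox, polyamine oxidase, from 44.2 ± 1.9 to 35.6 ± 1.2 (-0.31 ± 0.053), and Sat1, the acetyltransferase that starts polyamine breakdown, from 66.3 ± 1.8 to 59.3 ± 2.3 (-0.16 ± 0.046). The edgeR adjusted p was 6.24e-05, 1.37e-05, 0.000201 and 0.0121; the call of Sat1 was lost without Tet2KO replicate 3 or dKO replicate 3 (0.0627 and 0.0597).

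In Id1KO against WT 5 of 40 were called, 4 higher and 1 lower, or 12.5% against 15% of all genes; without WT replicate 2 or 3, or Id1KO replicate 1 or 2, it was 3. Mycn rose from 6.73 ± 0.18 to 12.02 ± 0.80 CPM (0.83 ± 0.088, edgeR adjusted p = 1.61e-06) and Mettl16 from 65.5 ± 3.0 to 80.2 ± 1.2 (0.29 ± 0.040, edgeR adjusted p = 4.56e-05). Mtr, methionine synthase, fell by 0.089 ± 0.026 (edgeR adjusted p = 0.0268), a call lost when any library of WT or Id1KO was left out (adjusted p 0.0521 to 0.0969) and by DESeq2 (0.0998). In dKO against Id1KO 4 of 40 were called, 2 in each direction, or 10% against 19.3%. Prmt1, an arginine methyltransferase, rose by 0.18 ± 0.044 and Mtr by 0.13 ± 0.027, while Mycn fell by 0.37 ± 0.085 and the repair methyltransferase gene Pcmt1 by 0.15 ± 0.038 (edgeR adjusted p = 0.00603, 0.00136, 0.00418 and 0.00902; without dKO replicate 1 that of Pcmt1 was 0.055). For the interaction 6 of 40 were called, 4 higher and 2 lower, or 15% against 14.5%.

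Myc, a known activator of Odc1, had 241 ± 9.3 CPM in WT, 248 ± 10 in dKO, 224 ± 1.9 in Tet2KO and 259 ± 7.0 in Id1KO. It fell by 0.10 ± 0.034 in Tet2KO against WT and rose by 0.10 ± 0.033 in Id1KO against WT and by 0.14 ± 0.034 in dKO against Tet2KO (edgeR adjusted p = 0.0211, 0.0433 and 0.00383). The first call was lost without WT replicate 1 or any Tet2KO replicate (adjusted p 0.0611 to 0.144, and a log2 fold change of -0.069 without WT replicate 1). The second was lost without WT replicate 2 or 3, any Tet2KO replicate, or Id1KO replicate 1 or 2 (adjusted p 0.0506 to 0.171), and with a replicate block (0.0552). The E-box CACGTG, a motif bound by the Myc family that reads the same on both strands, was found in the promoter window (250 bases before to 50 after the start) of 1 of 8 members with a RefSeq entry (GRCm38.p6). That member is Sms, on the minus strand, which has 2 annotated starts. The motif, in capitals, begins 196 bases before 1 of them, and the window of the other start does not hold it. The whole stretch shown, motif and flanks, lies at chrX:157492466-157492495. In all, 8.09% of genes have the motif in such a window. Srm and Gm7292 had no entry, and sequence outside the windows, introns included, was not searched. Whether Myc acts on any member was not tested.
Sms promoter: cccagcggggttCACGTGcatttaaagaaa

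**Figure D5:**
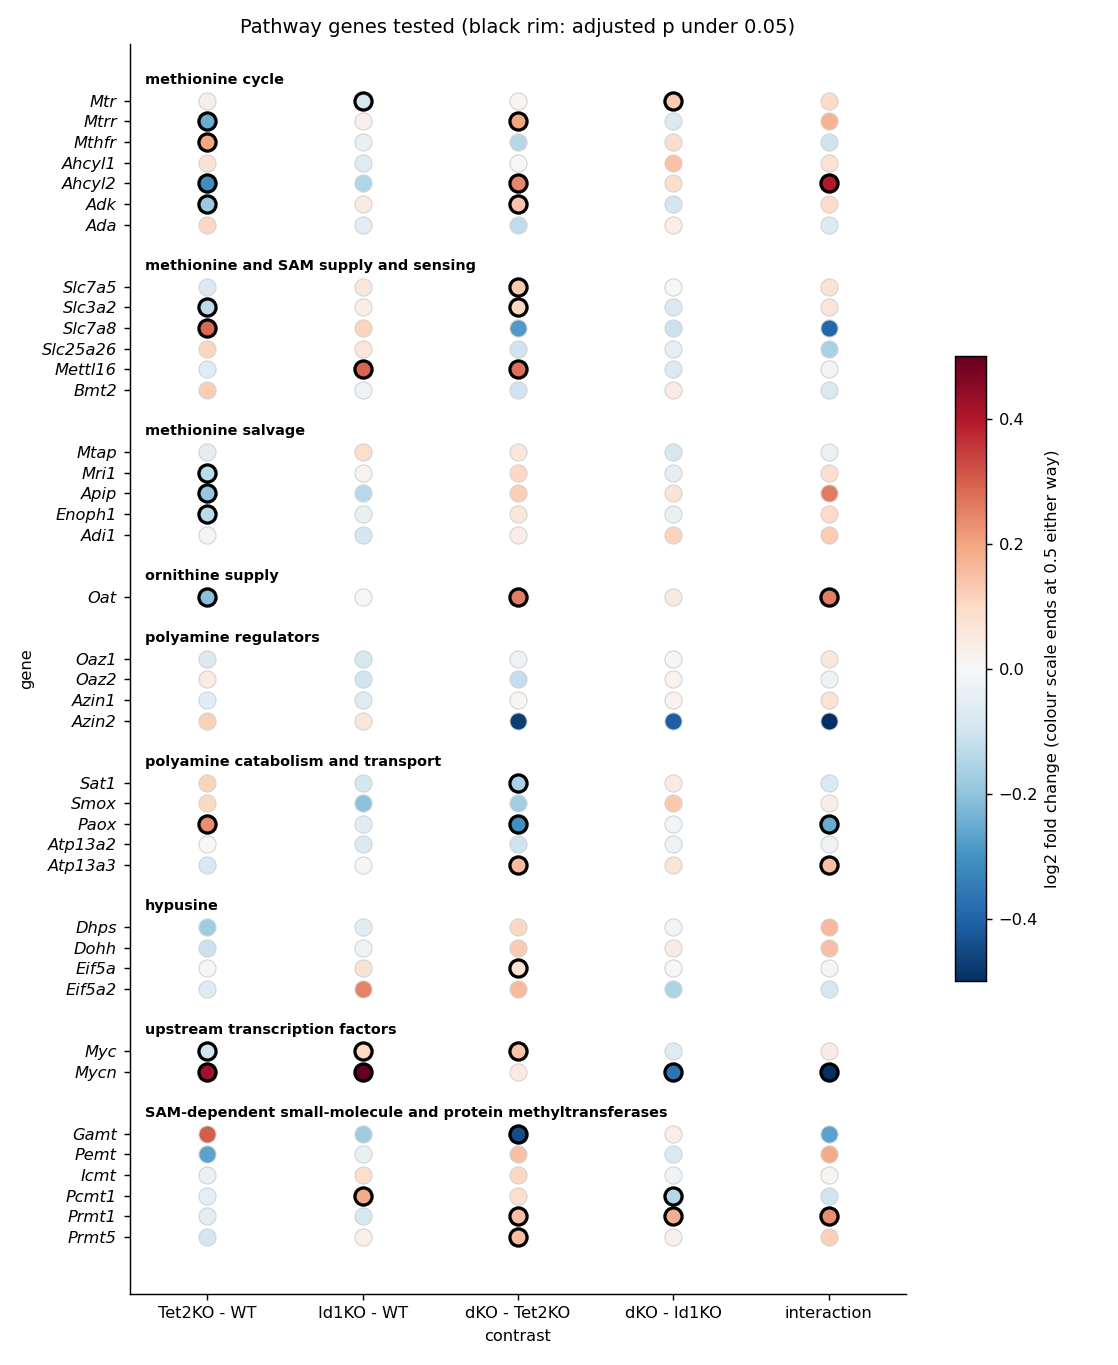
log2 fold change (colour, which ends at 0.5 either way) of the 40 pathway genes tested, by group, in 4 comparisons and the interaction; black rims are edgeR adjusted p under 0.05. Black rims number 13 in Tet2KO against WT, 5 in Id1KO against WT, 15 in dKO against Tet2KO, 4 in dKO against Id1KO and 6 in the interaction.

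Genes with the pattern most like that of Ahcy over the 12 libraries, by Pearson correlation of log2 CPM among 10333 genes, were Pxmp4 (0.987), Lta4h (0.982) and Clec12a (0.977), and the most opposite were Mtmr4 (-0.978), Hmmr (-0.970) and Sec23b (-0.968). For Amd2, among 10334 genes, they were Gm24407 (0.968), AC121821.1 (0.967) and Zfas1 (0.963), and Patl1 (-0.961), Il4ra (-0.955) and Sbno2 (-0.937). The 12 points fall into 4 genotypes and share their libraries, so these are descriptions. The rows of Ahcy and Amd2 hold what the counting gave them beside Gm4737 and Amd1. The mean share of Gm4737 ran from 1.91% in Tet2KO to 77.4% in dKO. These correlations are therefore with single divided rows, not with the sum of Ahcy and Gm4737. Pxmp4 and Sec23b lie on chromosome 2, as Ahcy does. The level of Pxmp4 ranged only from 15.5 ± 0.31 CPM in dKO to 19.3 ± 0.30 in Tet2KO, a much narrower span than that of Ahcy.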

How the data were processed

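The deposited table holds values that are estimated counts (RSEM expected counts) per gene for 12 libraries of total RNA depleted of ribosomal RNA, made by the authors with STAR and RSEM on mm10, per the submitters' processing notes; versions and the strand setting are not given in the sources used here. Counts were rounded. All 55450 gene identifiers matched GENCODE M21 (GRCm38), the source of positions and transcripts. Genes were kept by filterByExpr (minimum count 10), scaled by TMM and fitted in edgeR 4.0.16 (R 4.3.3) by the quasi-likelihood model, all 12 libraries together with 1 mean per genotype; tests were two-sided, adjusted by Benjamini-Hochberg over 14346 genes, with a threshold of 0.05. CPM used TMM library sizes. The fitting steps were also run on simulated counts with known changes set in Tet2KO. Those counts held no reads shared between near-identical rows, so the run does not bear on the divided rows.

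Family sums replaced their rows in a second fit of the whole table. Copies were sought with blast 2.17.0 at 95% identity over 100 bases or more. The 12 pairs of libraries within a genotype differed by 1.18 to 2.1 times sampling noise, against 2.89 to 5.94 between genotypes, and were kept apart. Members and lists were chosen with earlier results of these data known. Named genes were all members, Tet2, Id1, Myc, Mycn, Mettl16, in each comparison the 2 highest and 2 lowest called pathway genes (a group mean of 5 CPM or more being required), the 3 genes most like and most opposite to Ahcy and to Amd2 (log2 CPM with a pseudocount of 0.5), and copies found by sequence. Alternatives were DESeq2 1.42.0, RLE and upper-quartile scaling, no filter, only the libraries compared, a replicate block, family sums before the fit, and leaving out each library; 5 others, all of them sums with or without copies, were added after the data were seen.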

Additional observations from a re-analysis of the deposited data

Results flagged for a closer look

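The effect of the Id1 label differed by Tet2 label for 10 named genes, by the interaction term in edgeR's quasi-likelihood test (dKO minus Tet2KO, less Id1KO minus WT). The other named genes tested, which were Tet2, Sms, Myc, Mettl16, Mtr, Mtrr, Slc7a8, Sat1 and Pcmt1, were not called for it. Over all genes tested 14.5% were called for this term. Ahcyl2, Oat, Mycn and Paox met the naming rule by their call in this same term, so the number of genes is partly set by the choice. Prmt1 met it by its call in dKO against Id1KO, whose libraries also enter this term. On the log2 scale the difference was 0.232 for Mat2a (adjusted p = 0.000927), -0.186 for Mat2b (0.0122), 0.201 for Odc1 (0.000561) and 0.165 for Srm (0.0308). It was 0.395 for Ahcyl2 (0.0048), 0.257 for Oat (0.000973), -0.251 for Paox (0.0271), 0.234 for Prmt1 (0.0146) and -0.791 for Mycn (0.000243), and for Id1 itself it was -1.399 (0.000301). All 12 libraries enter each of these values. The call of Paox was lost without WT replicate 3, Tet2KO replicate 1, Id1KO replicate 1 or 3, or dKO replicate 1 (adjusted p 0.0527 to 0.077) and by DESeq2 (0.0623); that of Srm is described with its values above.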

How the results depend on the processing

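Each named gene was followed in every comparison, which gave 95 pairs of gene and comparison. Of 49 called pairs 37 kept the call under every alternative run, and 8 that did not are given beside the result or among the interactions. The other 4 were, in dKO against Tet2KO, Ahcyl2 (adjusted p = 0.0592 without Tet2KO replicate 2), Mtrr (0.137 and 0.0893 without Tet2KO or dKO replicate 3, 0.0736 by DESeq2) and Prmt1 (0.0546 to 0.063 without Tet2KO replicate 1 or 3 or dKO replicate 1 or 2), and Tet2 in Id1KO against WT (0.123 and 0.115 without WT replicate 3 or Id1KO replicate 1, 0.0786 by DESeq2). The number of pathway genes called in Tet2KO against WT was 13, and 8 by DESeq2 (2 higher, 6 lower). With 1 library left out it ran from 8 to 16 there, from 3 to 7 in Id1KO against WT, from 9 to 15 in dKO against Tet2KO, from 3 to 5 in dKO against Id1KO and from 4 to 6 for the interaction. Signs changed for 14 pairs, none of them called. With 1 library left out, Mat2b in Tet2KO against WT ran from -0.021 to 0.031 (0 with the families summed first), Sms in dKO against Id1KO from -0.034 to 0.020 (0.015 when summed with Sms-ps) and for the interaction from -0.009 to 0.053. Srm ran from -0.046 to 0.029 in dKO against Id1KO and from -0.020 to 0.059 in Id1KO against WT, Mat2a from -0.016 to 0.038 and Mycn from -0.001 to 0.099 in dKO against Tet2KO, and Mettl16 from -0.054 to 0.011 for the interaction. Id1 ran from -0.038 to 0.127 in dKO against Tet2KO and from -0.074 to 0.091 in dKO against Id1KO, Mtr from -0.006 to 0.016 in dKO against Tet2KO, Paox from -0.049 to 0.006 in dKO against Id1KO, and Prmt1 from -0.099 to 0.007 in Tet2KO against WT. Oat, at 0 in Id1KO against WT, ran from -0.023 to 0.029, and was at 0.003 with RLE scaling and DESeq2, -0.002 with upper-quartile scaling, -0.009 without a filter, and 0.004 with only the libraries compared and with the families summed. The cause was not tested. With the replicate block the counts were 14, 5, 13, 4 and 5 in the same order of comparisons, and among the named genes the block ended the call of Myc in Id1KO against WT only. A pairing of libraries by number was not clear. With the same number, 7 of 18 pairs between genotypes had a correlation of deviations over 0.1 (median 0.081, range -0.281 to 0.308). With different numbers it was 9 of 36 (median -0.036, range -0.32 to 0.451). The interaction uses all 12 libraries and has no value for only the libraries compared. In Tet2KO, depth limits Gm7292 (2.87 to 7.23 estimated counts a library) and Amd2 (16.5 to 34.7).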
